A study of Mus musculus with 6 samples.

Results

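Respiratory chain subunit genes were taken as every probe whose gene symbol starts with Ndufa, Ndufb, Ndufc, Ndufs, Ndufv, Sdha, Sdhb, Sdhc, Sdhd, Uqcr or Atp5, or with Cox followed by a digit from 4 to 8. The rule used names only and no measured value. It found 111 of 25697 probes, for 89 of 16593 named genes. Signals came from Illumina bead arrays of synovial tissue, the lining of the joint, taken around the ankles of male DBA/1 mice with collagen-induced arthritis. The mice were 6 to 8 weeks of age when used. Every group had been immunized at the tail base with 100 µg of bovine CII (type II collagen) emulsified in CFA (complete Freund's adjuvant). A booster of CII in incomplete Freund's adjuvant followed through a footpad after 2 weeks, and that foot was not harvested. The groups were week 6 (named induction by the series), week 9 (peak) and week 15 (resolution) after immunization, with 2 arrays each of RNA from pooled tissue. No group without immunization was analysed here. Nothing in the labels tells if the arrays of a week came from separate pools, so each p-value reflects spread among arrays that may be technical only.

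The respiratory chain sits in the inner mitochondrial membrane. Complex I takes electrons from NADH and complex II from succinate, complex III passes them to cytochrome c, and complex IV hands them to oxygen. The proton gradient that complexes I, III and IV build drives complex V, the ATP synthase. Most subunits have 1 gene that nearly all cells use, but some subunits of complex IV come in tissue isoforms. In mice, Cox6a2, Cox7a1 and Cox8b are the isoforms of heart and skeletal muscle, and Cox7a1 and Cox8b are also known from brown fat. Cox6a1, Cox7a2 and Cox8a are their widely expressed partners.

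The promoters of an isoform pair and of 1 further partner are shown because Cox8b had the widest range of signal of all tested members, while Cox8a and Cox6a1 are expressed in nearly all tissues. Each is the strand of the gene, 5′ to 3′, over the 200 bases before the annotated start, from RefSeq on build GRCm38.p6. Capitals mark matches to the site of NRF-1, a regulator of nuclear genes for mitochondria (GCGCA followed directly by its reverse complement, TGCGC), to CCGGAAG, the core bound by GABPA, another such regulator, to CAGCTG, an E-box of the kind that muscle regulators bind, and to TATAAA, the TATA box. Both strands were searched, and no 2 matches overlap in the stretches shown.
Cox8b, chr7:140900447-140900646, minus strand: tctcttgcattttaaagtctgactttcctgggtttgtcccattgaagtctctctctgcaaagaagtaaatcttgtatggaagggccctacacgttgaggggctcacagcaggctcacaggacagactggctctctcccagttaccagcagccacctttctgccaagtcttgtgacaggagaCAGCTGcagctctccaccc
Cox8a, chr19:7217617-7217816, minus strand: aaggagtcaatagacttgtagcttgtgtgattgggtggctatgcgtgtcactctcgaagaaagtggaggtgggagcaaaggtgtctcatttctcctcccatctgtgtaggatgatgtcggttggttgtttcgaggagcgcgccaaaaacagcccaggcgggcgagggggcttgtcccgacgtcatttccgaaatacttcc
Cox6a1, chr5:115348959-115349158, minus strand: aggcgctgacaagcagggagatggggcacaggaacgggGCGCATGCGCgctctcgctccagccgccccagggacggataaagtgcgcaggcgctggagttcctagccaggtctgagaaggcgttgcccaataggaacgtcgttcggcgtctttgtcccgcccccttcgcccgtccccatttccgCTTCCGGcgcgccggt

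The Cox8b stretch held 1 E-box and 1 CG pair, while the Cox8a stretch held none of the 4 motifs and 11 CG pairs. The Cox6a1 stretch held an NRF-1 motif, a GABPA core and 23 CG pairs. The same stretches of the muscle isoform Cox7a1 and its partner Cox7a2, not shown, held none of the 4 motifs. They held 4 and 12 CG pairs. No window was given for Cox6a2. The motifs thus did not separate muscle isoforms from their partners in the Cox7a pair. A promoter window of 300 bases (250 before to 50 after the start) was given for 74 of the 89 genes. In those windows 6 genes, or 8.11%, held the NRF-1 motif, against 0.971% of all 32851 windows, and 20 genes, or 27%, held the GABPA core, against 8.86%. The E-box stood in 5 genes (6.76%) against 16.3% of all windows, and the TATA box in 8 genes (10.8%) against 13.6%. The E-box genes were Cox8b, Atp5b, Ndufa8, Ndufb10 and Ndufv2. Beyond the stretches shown, the full windows also held a TATA box for Cox8b and a GABPA core for Cox8a. A match is a string of letters and says nothing of binding in this tissue.

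Arrays had a median intensity between 99.07 (week 15, second) and 129.5 (week 6, first), and 47.88% to 50.73% of all probes were above background. Both week 15 arrays stood apart from each other (r = 0.9753 across features, against 0.9913 and 0.9911 for the pairs of week 6 and week 9). The first carried bright skeletal muscle genes and correlated at 0.978 to 0.9844 with the 4 earlier arrays. The second, which was the dimmest array, correlated least with those 4, at 0.964 to 0.9704. Of 14 genes listed for synovial fibroblasts, 11 were tested, and Pdpn, Pdgfra and Dcn were above background on all 6 arrays. Vcam1, an adhesion molecule of these cells, fell by 1.47 from week 6 to week 9 (limma adjusted p = 0.0483). Cdh11 was not above background on any array and Prg4, the lubricin gene, has no probe named here. Lymphocyte genes such as Cd3g were also bright, so the tissue held several cell types. In such bulk tissue, fewer cells of a type and less RNA per cell cannot be told apart.

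Most respiratory chain genes were well measured. A probe counted as above background when fewer than 5% of the control rows reached its signal, and 77 of the 89 genes met this on all 6 arrays. The 82 genes above background on at least 2 arrays were tested, by their brightest probe. The other 7 were Ndufs1, an iron-sulfur subunit of complex I, Uqcrfs1, the Rieske iron-sulfur protein of complex III, Uqcrq of complex III, Atp5k of complex V, and Cox6b2, Cox7b2 and Cox8c, isoforms of complex IV known from testis. Of these, Cox6b2 was above background on 1 array and the other 6 on none. Since a probe may also fail to bind, this does not show that the tissue lacked Ndufs1 or Uqcrfs1 RNA. Signals of different probes depend on the probe, so levels are compared only within a gene.

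Of the 82 tested members, 1 passed the threshold in any comparison: Atp5a1, the α subunit of ATP synthase, rose between week 9 and week 15. All changes are on a log2 scale after background correction, and a change passed at a limma adjusted p under 0.05 over all 10167 features. Between week 6 and week 9 no member passed, against 0.354% of all features, and 5 members had an unadjusted p under 0.05, all lower at week 9 (8.59% of all features were lower and 7.43% higher at that p). Between week 9 and week 15, 1 of 82 passed, against 1.19% of all features, and at an unadjusted p under 0.05, 8 were higher (10.3% of all features) and 6 lower (12.9%). Between week 6 and week 15 no member passed, against 0.0492% of all features, and 5 had an unadjusted p under 0.05, all higher at week 15 (5.9% of all features were higher and 8.52% lower). The F test over the 3 weeks called no member, against 0.62% of all features, with 8 members at an unadjusted p under 0.05, or 9.76% against 22.2%. These comparisons share arrays, so their results are not independent.

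The members' median log2 change was 0.06 from week 6 to week 9, against 0.04 over all features, and -0.09 from week 9 to week 15, against -0.08. From week 6 to week 15 it was -0.05, against -0.02. Both week 9 arrays lay above both week 6 arrays for 29 members, or 35.4%, against 32.6% of all features, and below them for 18, or 22%, against 25.6%. At week 15 both arrays lay above both week 9 arrays for 17 members (20.7%, against 22.7%) and below for 29 (35.4%, against 32.2%). Against week 6, both week 15 arrays lay above for 17 members (20.7%, against 19.7%) and below for 15 (18.3%, against 24.3%). These shares of members lie near those of all features.

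**Figure D1:**
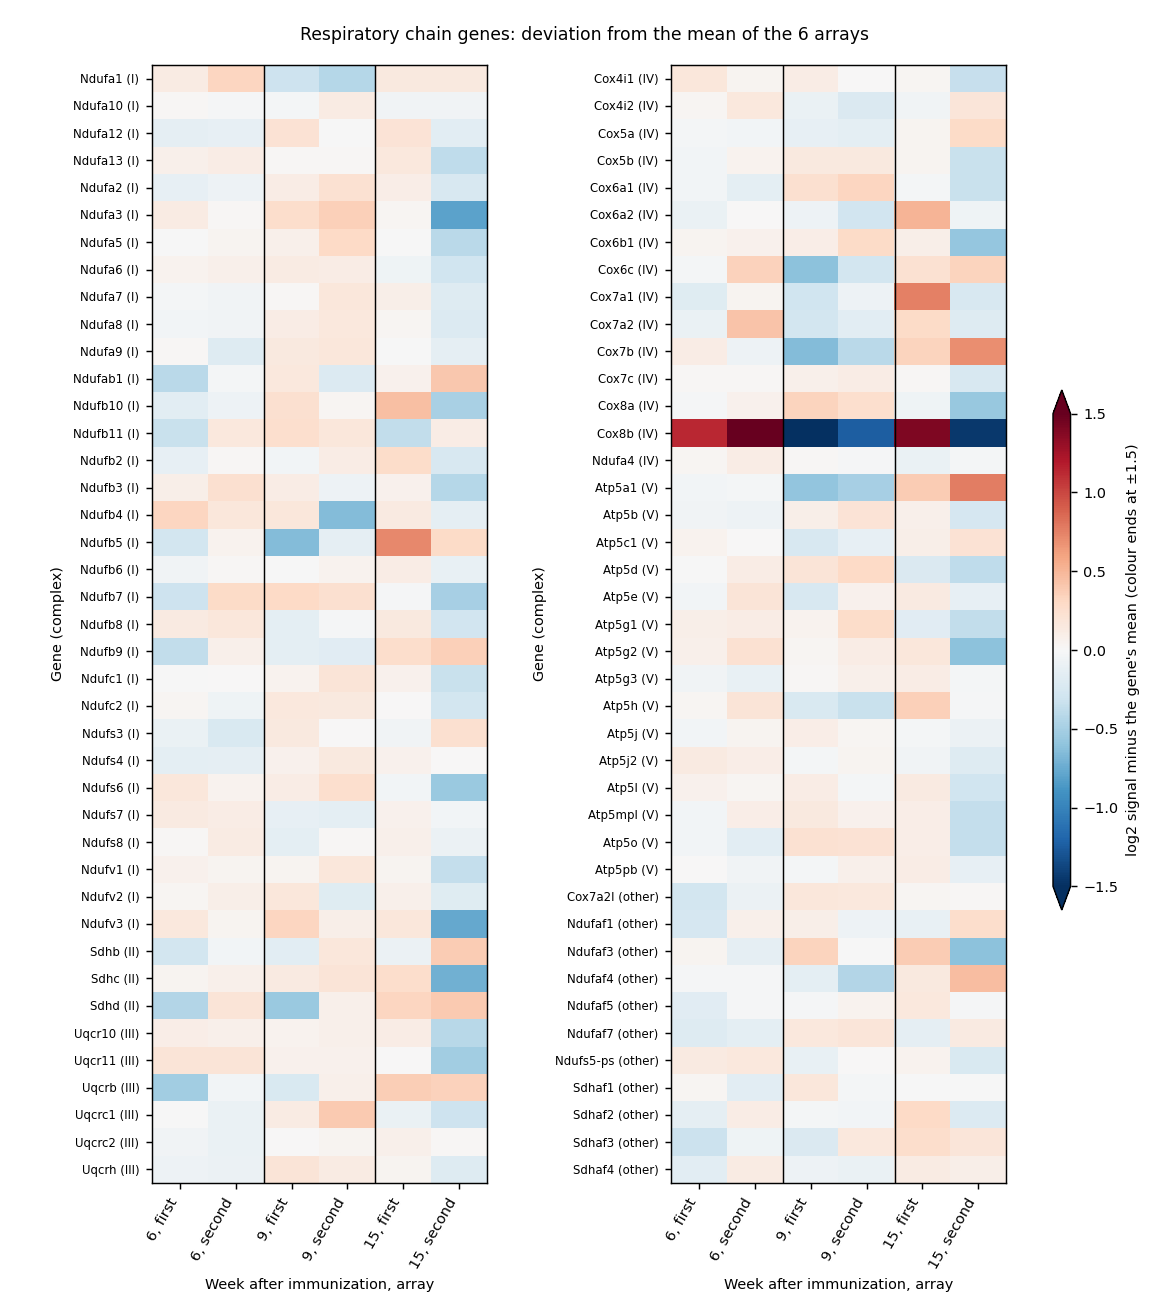
Log2 signal of each of the 82 tested genes (rows, with the complex in brackets) on each of the 6 arrays (columns), minus the gene's mean over the arrays. Red is above and blue below that mean, most cells are pale, Cox8b stands out in complex IV, and many genes of complexes I, III, IV and V are blue on the second week 15 array.

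The median change of each complex was small in every comparison. Complex I, with 32 tested genes, had medians of 0.10 from week 6 to week 9, -0.14 from week 9 to week 15 and -0.07 from week 6 to week 15. Complex II, with 3 genes, had 0.11, 0.14 and 0.30, and complex III, with 6 genes, had 0.15, -0.22 and -0.07. Complex IV, with 15 genes, had -0.10, 0.22 and -0.12. Its median of 0.22 is the value of Cox4i2, whose signals lie near background. From week 9 to week 15, 8 of the 15 genes had a positive change. Complex V, with 15 genes, had 0.05, -0.12 and -0.06. Most of these signs depended on the setting. From week 9 to week 15, complex IV turned to -0.05 when the first week 15 array was left out and to -0.06 over genes above background on all 6 arrays. When the second week 15 array was left out, complex V turned to 0.06 and all members to 0.05. With the mean of the tested probes, complex II turned to -0.03, and from week 6 to week 15 it turned to -0.06. From week 6 to week 15 and without the second week 15 array, complexes I, III, IV and V turned to 0.05, 0.08, 0.04 and 0.07. With scaling to the 75th percentile, complex IV turned to 0.05 from week 6 to week 9. No test was made between complexes.

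**Figure D2:**
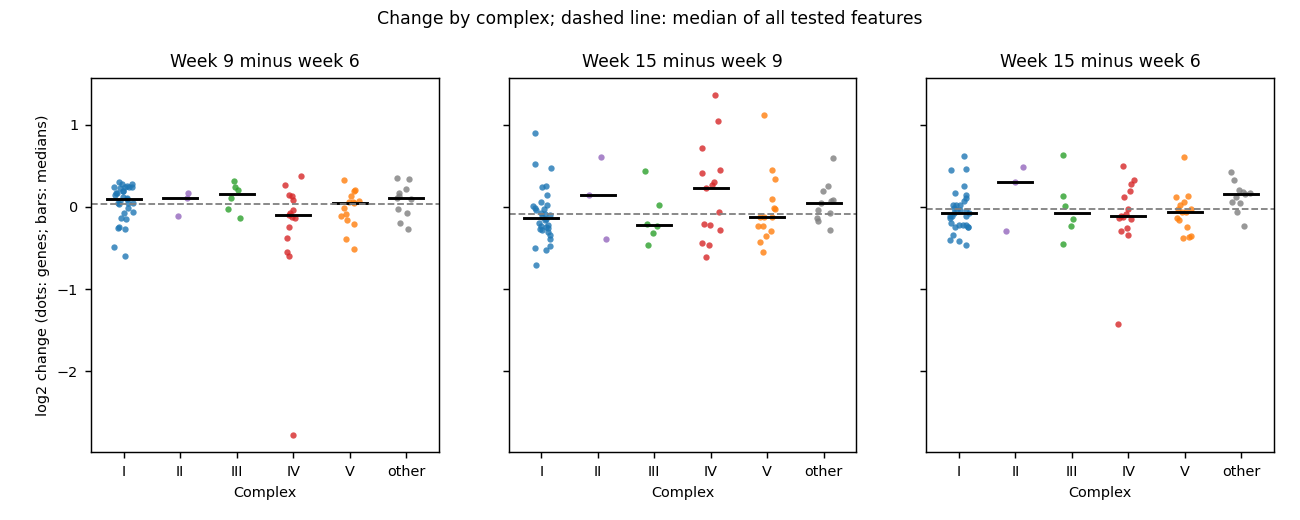
Log2 change of each tested gene (dots) by complex for the 3 comparisons, with each complex's median (bar) and the median of all 10167 features (dashed line). The medians furthest from the dashed line are complex II at week 15 minus week 6 (0.30 against -0.02) and complex IV at week 15 minus week 9 (0.22 against -0.08). Cox8b at -2.78 (week 9 minus week 6) and Atp5a1 at 1.12 (week 15 minus week 9) lie apart from their complexes.

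In complex I, none of the 32 tested genes passed. Ndufa1, a small subunit of the membrane arm, had the largest negative change to week 9. Its log2 signals were 12.03 and 12.23 at week 6, 11.59 and 11.48 at week 9, and 12.06 and 12.06 at week 15. Both week 9 arrays lay below all 4 others, by -0.59 against week 6 (SE 0.16, limma adjusted p = 0.19) and with 0.52 from week 9 to week 15 (adjusted p = 0.134). With the authors' processed values the second change was 0.54 and passed (limma adjusted p = 0.0469), where 3.24% of all features passed. Ndufb5, an accessory subunit, went from 7.85 and 8.18 at week 6 and 7.48 and 8.00 at week 9 to 8.85 and 8.42 at week 15. Its week 15 arrays were the highest, but the change of 0.89 from week 9 did not pass (SE 0.25, limma adjusted p = 0.116). Ndufa3, another accessory subunit, had 11.62 and 11.51 at week 6, 11.76 and 11.86 at week 9, and 11.52 and 10.69 at week 15. Its change of -0.70 from week 9 (adjusted p = 0.185) lies mostly in the second week 15 array, and without the first it was -1.12 and passed (limma adjusted p = 0.0226). Ndufb11, a subunit of the membrane arm, had the largest positive change to week 9, 0.30 (adjusted p = 0.569).

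The core subunits of complex I, which carry out electron transfer, had small changes. Ndufv1, which binds NADH, had signals of 11.51 and 11.48 at week 6, 11.48 and 11.61 at week 9, and 11.48 and 11.08 at week 15. Weeks 6 and 9 overlap, and both week 15 arrays lie below all 4 others, the first only barely. Ndufs7 and Ndufs8, which hold iron-sulfur clusters near the quinone site, had changes from -0.25 to 0.14 over the 3 comparisons, and Ndufv2 had changes from -0.11 to -0.04. Ndufs3 had 0.24 to week 9, 0.02 from week 9 to week 15 and 0.26 from week 6 to week 15. All 5 had limma adjusted p from 0.41 to 0.965 in the 3 comparisons. Ndufs4, an accessory subunit with 4 tested probes, was chosen after its values were seen. Its brightest probe, which stood for the gene, had 0.24 to week 9 and -0.07 from week 9 to week 15. The other probes had -0.02, -0.18 and -0.15 to week 9, then 0.30, 0.84 and 0.54. The brightest probe thus differed in sign from the others in both steps. From week 6 to week 15 all 4 were positive (0.17 to 0.66).

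The 3 tested genes of complex II, which is also succinate dehydrogenase of the citric acid cycle, did not pass. No probe is named here for Sdha, the flavin subunit. Sdhb, the iron-sulfur subunit, had 9.56 and 9.80 at week 6, 9.68 and 10.01 at week 9, and 9.75 and 10.22 at week 15. These signals overlap in every comparison. Its 3 probes disagreed in sign from week 6 to week 9 (-0.27 to 0.16) and from week 9 to week 15 (-0.22 to 0.14). They disagreed most from week 6 to week 15 (-0.49 to 0.30), where the complex II median of 0.30 is the value of its brightest probe. Sdhc and Sdhd anchor the complex in the membrane. Sdhc had 10.17 and 10.20 at week 6, 10.26 and 10.32 at week 9, and 10.39 and 9.41 at week 15, so that both week 15 arrays lie on either side of all others. Sdhd had 6.00 and 6.63 at week 6, 5.89 and 6.51 at week 9, and 6.77 and 6.84 at week 15, a change of 0.60 from week 9 (SE 0.28, limma adjusted p = 0.247).

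In complex III, 6 of 8 genes were tested and none passed. Uqcrc1 and Uqcrc2 are the large core proteins, and a difference between them was not tested. Uqcrc1 had 10.71 and 10.61 at week 6, 10.83 and 11.10 at week 9, and 10.61 and 10.40 at week 15, with week 9 highest and a change of -0.46 to week 15 (SE 0.18, limma adjusted p = 0.189). Uqcrc2 stayed between 12.67 and 12.86 on all 6 arrays. Uqcrb, the subunit beside the quinone site, had 8.98 and 9.47 at week 6, 9.27 and 9.58 at week 9, and 9.87 and 9.85 at week 15. Its week 15 arrays were above all 4 others, with 0.63 from week 6 (SE 0.22, adjusted p = 0.276). Uqcr11, the smallest subunit, had the largest negative change from week 6 to week 15, -0.45 (adjusted p = 0.377), and without the first week 15 array this was -0.71 and passed (limma adjusted p = 0.0451).

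In complex IV, 15 of 18 genes were tested and none passed, while Cox8b had the largest change of all members to week 9. Its log2 signals were 7.12 and 7.65 at week 6, 4.46 and 4.74 at week 9, and 7.39 and 4.54 at week 15. It was above background on both week 6 arrays, on neither week 9 array, and on the first week 15 array only. On these background-corrected signals, Cox8b was thus at least 4.83-fold lower at week 9 than at week 6. That bound comes from the lowest signal above background and depends on the background correction. The fit gave -2.78 (SE 0.79, limma adjusted p = 0.199). The spread between both week 15 arrays, an SD of 2.01, enters the SE of that comparison. In a fit of the week 6 and week 9 arrays alone, and without either week 15 array, the same change passed (limma adjusted p = 0.0252 in each), where 1.68% of all features passed without either week 15 array. With the authors' processed values it was -0.93 (limma adjusted p = 0.193).

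Genes of several cell types are set beside Cox8b here, and their part in its changes was not tested. The summed signal of the fat list, like Cox8b, was higher on both week 6 arrays and the first week 15 array than on the rest. That of the muscle list was by far highest on the first week 15 array and was higher at week 9 than at week 6. Of the 20 skeletal muscle genes listed, 10 were tested, and their signals summed to 12044 for the first array of week 15, against 933.6 to 1478 elsewhere. That sum was 1244 and 1281 at week 6 and 1402 and 1478 at week 9, where Cox8b was lower. The median signal of these 10 genes was 6.34 and 6.13 at week 6, 6.45 and 6.35 at week 9, and 9.05 and 5.56 at week 15. Acta1, the muscle actin, and Ckm, the muscle creatine kinase, were above background on the first week 15 array only. They are therefore not among the 10 tested. Of 12 fat cell genes listed, 7 were tested, and their summed signal was 848.0 and 1065 at week 6, 260.5 and 282.3 at week 9, and 433.9 and 282.5 at week 15. Adipoq, which encodes adiponectin, had 7.97 and 8.24 at week 6 and at most 6.39 on the later arrays, and Cidea, which is known from brown fat, was above background at week 6 only. Adipoq fell by 2.72 from week 6 to week 9 (limma adjusted p = 0.0262). By the same kind of bound, Cidea was at least 2.32-fold lower at week 9 (limma adjusted p = 0.0349). Ucp1, the uncoupling protein that defines brown fat, was not above background on any array, nor were Fabp4, Plin1 and Retn. Lists of 3 other cell types also had negative medians from week 6 to week 9. The median change was -0.72 for 7 macrophage genes, -0.55 for 11 synovial fibroblast genes and -0.34 for 7 endothelial genes, against 0.15 for 8 lymphocyte genes. The summed signal of the macrophage genes was 30863 and 29992 at week 6 and 19271 and 22274 at week 9.

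The other muscle isoforms moved less. Cox7a1 had signals of 6.03 and 6.25 at week 6, 5.90 and 6.13 at week 9, and 6.96 and 5.96 at week 15. Cox6a2 had 8.49 and 8.60 at week 6, 8.52 and 8.30 at week 9, and 9.10 and 8.53 at week 15. Both were highest on the first week 15 array, the array with the bright muscle genes, while the other 5 arrays lay between 5.90 and 6.25 for Cox7a1 and between 8.30 and 8.60 for Cox6a2. From week 9 to week 15, Cox7a1 changed by 0.45 (SE 0.32, limma adjusted p = 0.41) and Cox6a2 by 0.41 (SE 0.23, adjusted p = 0.307). Without the first week 15 array these were -0.05 and 0.12. From week 6 to week 9 they changed by -0.12 and -0.13, each less than its SE.

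**Figure D3:**
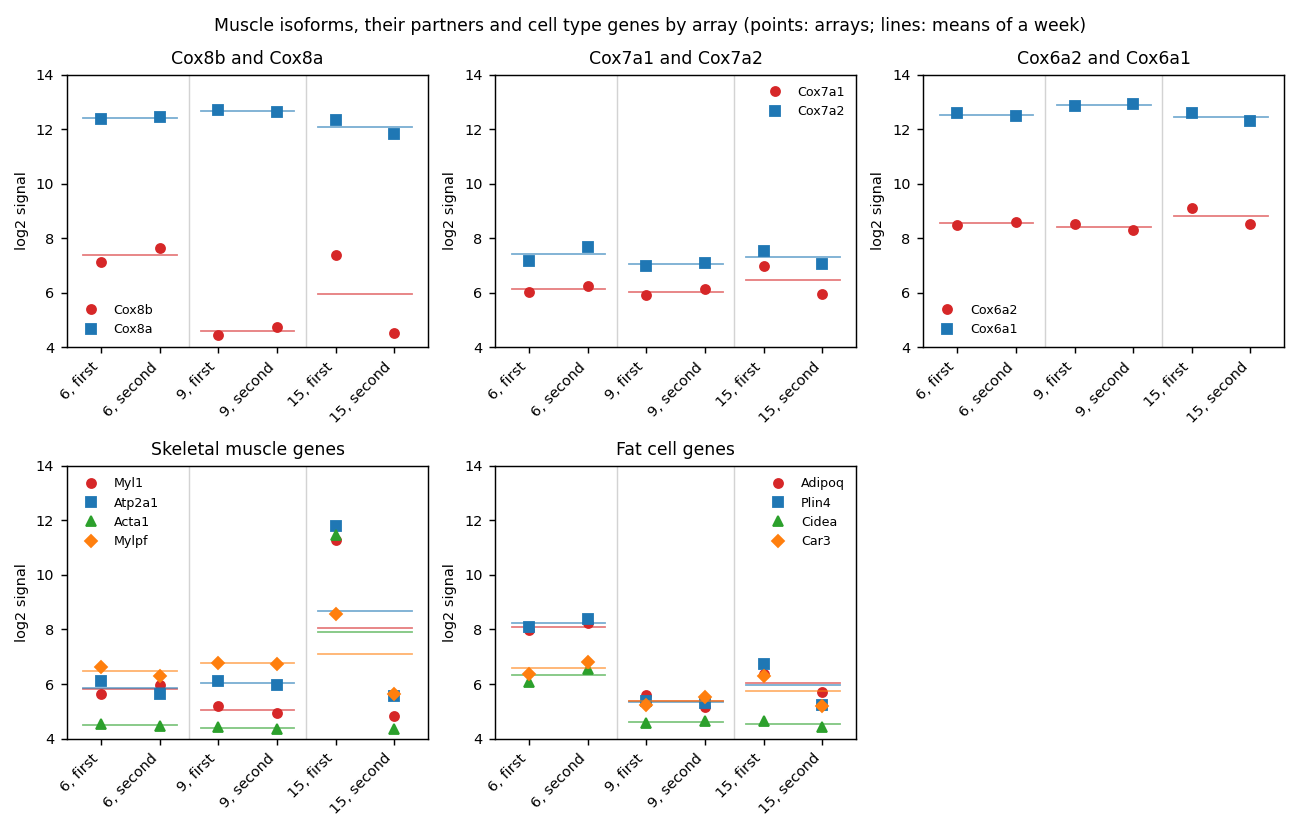
Log2 signal on each of the 6 arrays (points, with the mean of each week as a line) for 3 muscle isoforms and their partners, for 4 skeletal muscle genes and for 4 fat cell genes. Cox8b is at 7.12 and 7.65 at week 6 and at 7.39 on the first week 15 array. Cox7a1, Cox6a2 and the muscle genes are highest on that week 15 array, while the fat cell genes are highest at week 6. Heights of different genes are not comparable.

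Among the widely expressed partners, Cox8a had 12.37 and 12.44 at week 6, 12.71 and 12.63 at week 9, and 12.32 and 11.81 at week 15, with a change of -0.61 from week 9 to week 15 (SE 0.21, limma adjusted p = 0.15). Cox6a1 also had its highest signals at week 9, with 0.38 from week 6 and -0.46 to week 15 (adjusted p = 0.349 and 0.182). Cox7a2 had -0.38 and 0.27 (adjusted p = 0.474 and 0.519). None of the 3 passed, and differences between partners were not tested. Of the remaining isoforms, Cox4i2, known from lung and from low oxygen, ranged from 5.18 to 5.58, and its partner Cox4i1 from 12.57 to 13.09. The Cox4i2 signals lie near background, so their narrow range does not show a steady level. Its change from week 9 to week 15, 0.22, ran from 0.05 to 0.46 with other processing.

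Cox7b, a small structural subunit of complex IV, came closest to the threshold there. It had 5.69 and 5.51 at week 6, 4.93 and 5.17 at week 9, and 5.91 and 6.28 at week 15, with week 9 lowest and week 15 highest without overlap. The change from week 9 to week 15 was 1.04 (SE 0.20, limma adjusted p = 0.062). It passed when arrays were scaled to their 75th percentile (1.24, adjusted p = 0.0376) where 1.61% of all features passed, when each probe was a feature (limma adjusted p = 0.0487) and without the first week 15 array (1.22, limma adjusted p = 0.0247). Cox7b was above background on 1 of 2 week 9 arrays, and its change was 0.38 with no background correction and 0.26 with the authors' processed values. Cox6c, another small subunit, chosen after its values were seen, had 11.47 and 11.85 at week 6, 10.89 and 11.23 at week 9, and 11.72 and 11.83 at week 15, and a change of 0.72 from week 9 (adjusted p = 0.118). The core-binding subunits Cox5a and Cox5b had changes from -0.29 to 0.30, and Ndufa4, which carries a complex I name but is a subunit of complex IV, stayed between 12.84 and 13.05. Cox6b1, on the side of the intermembrane space, had a change of -0.44 from week 9 to week 15 (limma adjusted p = 0.3).

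In complex V, 15 of 16 genes were tested and Atp5a1 passed. Its signals were 8.74 and 8.75 at week 6, 8.18 and 8.28 at week 9, and 9.16 and 9.54 at week 15. The 3 weeks did not overlap, with week 9 lowest and week 15 highest. From week 9 to week 15 it rose by 1.12 (SE 0.185, limma adjusted p = 0.0462), or 2.18-fold. The change from week 6 to week 9 was -0.52 (adjusted p = 0.262) and from week 6 to week 15 0.61 (adjusted p = 0.241). The call is near the threshold: it held in 9 of 17 other settings, all with the same sign and changes from 0.82 to 1.31. It was lost, among others, without each of the week 6 and week 9 arrays and without the second week 15 array, where limma adjusted p ran from 0.0748 to 0.323, with no filter on dim probes (0.0514), and with the replicate number as a block (0.0728). Atp5a1 has 1 probe, so no other probe bears on it.

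Atp5a1 has 4 partners in the F1 part of the synthase, its catalytic head, and none of them passed. Atp5b, the β subunit that forms the head together with α, had 14.30 and 14.28 at week 6, 14.44 and 14.55 at week 9, and 14.43 and 14.10 at week 15. It was thus highest at week 9, where Atp5a1 was lowest, and its change to week 15 was -0.23 (SE 0.18, limma adjusted p = 0.449). Atp5c1, the γ subunit of the rotor, had 12.85 and 12.81, then 12.57 and 12.68, then 12.90 and 13.02, the same order of weeks as Atp5a1 with a change of 0.34 (adjusted p = 0.25). Atp5d, the δ subunit, had 10.44 and 10.56, then 10.64 and 10.75, then 10.23 and 10.06. Week 9 was highest there and the change to week 15 was -0.54 (adjusted p = 0.128), which passed with the authors' processed values (-0.50, limma adjusted p = 0.0471) and without the first week 15 array (-0.63, limma adjusted p = 0.0478). Atp5e, the ε subunit, ranged from 6.35 to 6.78 with all weeks overlapping. A difference between these courses was not tested.

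**Figure D4:**
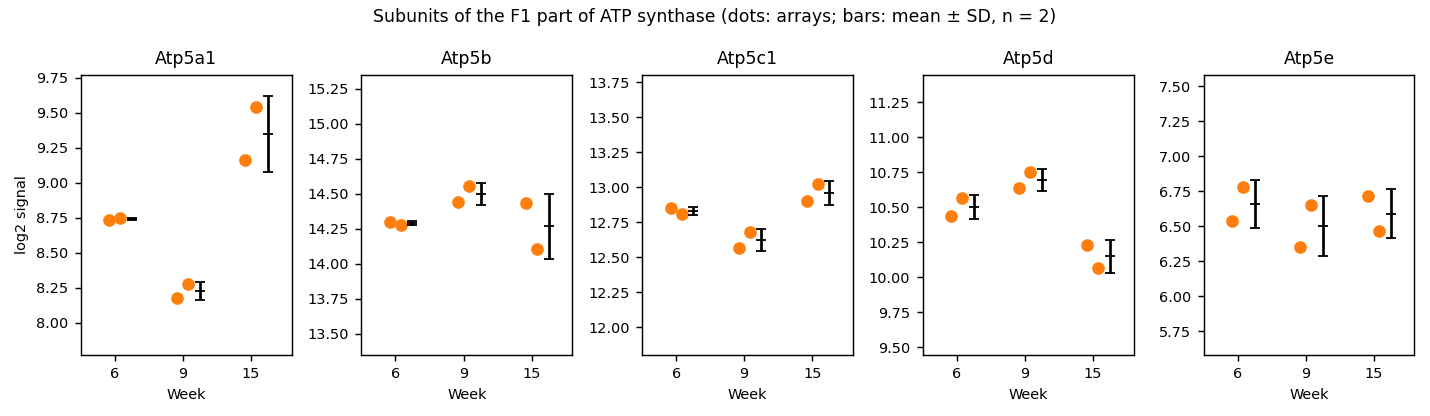
Log2 signal of the 5 F1 subunit genes by week (dots are arrays, bars are the mean ± SD of 2 arrays), each panel spanning 2 log2 units around its own mean. Atp5a1 is lowest at week 9 and highest at week 15, Atp5b and Atp5d are highest at week 9, and Atp5e overlaps throughout.

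The 3 genes Atp5g1, Atp5g2 and Atp5g3 encode the same mature c subunit of the rotor ring. Atp5g3 stayed between 14.12 and 14.34. Atp5g1 had 11.35 and 11.38 at week 6, 11.32 and 11.54 at week 9, and 11.10 and 10.90 at week 15, lower there than on all 4 other arrays by values that did not pass (-0.43 from week 9, limma adjusted p = 0.197). Atp5g2 was at 9.58 to 9.78 on both earlier weeks and at 9.71 and 8.93 at week 15. Atp5o, which joins the head to the stalk, had the largest positive change to week 9 in the complex, 0.32 (adjusted p = 0.46).

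The symbol rule also takes 11 tested genes that are no structural subunits of a complex: assembly factors, Cox7a2l, which helps complexes III and IV join into supercomplexes, and the pseudogene symbol Ndufs5-ps, whose probe may also bind RNA of the parent gene. None passed. Ndufaf4, an assembly factor of complex I, had 10.11 and 10.10 at week 6, 9.98 and 9.69 at week 9, and 10.28 and 10.59 at week 15, a change of 0.60 from week 9 (SE 0.19, limma adjusted p = 0.135). Ndufaf7, a methyltransferase for complex I, had the largest positive change to week 9, 0.35 (adjusted p = 0.368), followed by Cox7a2l with 0.34, both with week 9 arrays above week 6 arrays. Sdhaf3, an assembly factor of complex II, had 0.42 from week 6 to week 15 (adjusted p = 0.382) and Ndufs5-ps had -0.24. Ndufaf3 had 5.92 and 4.93 at week 15, a gap wider than any of its changes.

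Many members also differed between both arrays of week 15. The second was below the first for 66 of 82 members, or 80.5%, against 53.2% of all features. The members' median difference was -0.25, against -0.04 over all features, while at week 6 and week 9 it was 0.03 and 0.03. It reached 28 of 32 genes of complex I (median -0.28), all 6 of complex III (-0.23), 10 of 15 of complex IV (-0.37) and 13 of 15 of complex V (-0.23), and 1 of 3 of complex II. Ndufa3 and Sdhc, given above, are examples. Atp5a1, Cox7b and Ndufaf4 were higher on the second. Other mitochondrial lists, described below, mostly had lower medians there too. The mitochondrial ribosome went from 9.95 to 9.65 and the assembly factors outside the rule from 8.92 to 8.76. Electron carriers and entry points went from 10.38 to 10.23, regulators from 9.04 to 8.70, but citric acid cycle genes from 9.59 to 10.10. The members' median signal was 11.30 on the first week 15 array, against 7.65 over all features. The week 15 arrays also differed in brightness and in the muscle genes, and the part of either in the members' difference was not tested.

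**Figure D5:**
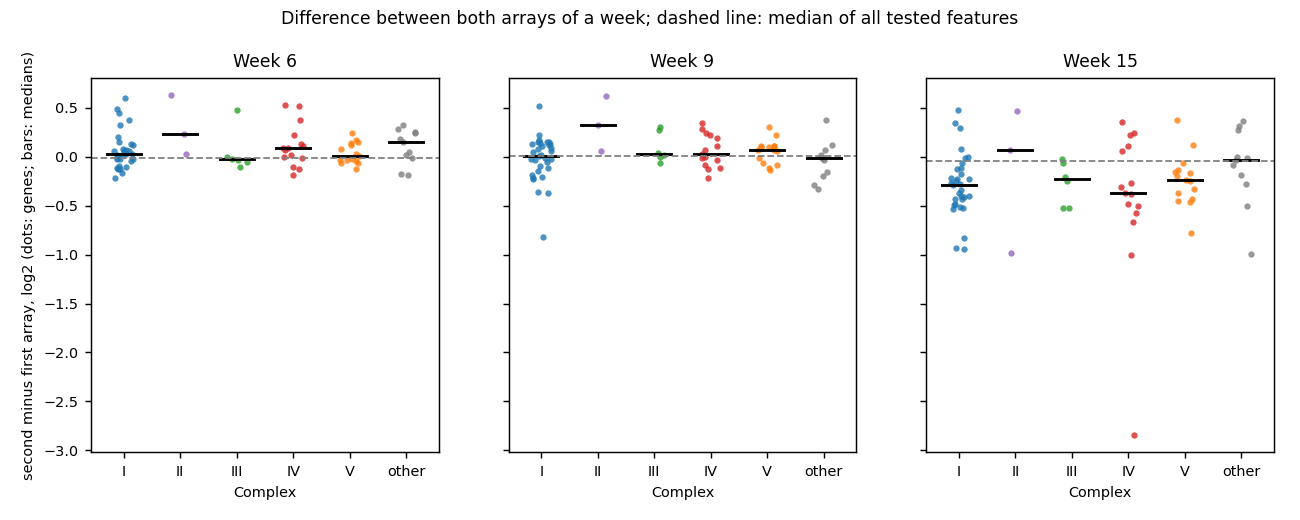
Difference between the second and the first array of each week on the log2 scale (dots are genes, bars are medians of a complex, the dashed line is the median of all features). At week 6 and week 9 the medians of complexes I, III, IV and V lie near 0, and at week 15 they lie between -0.37 and -0.23, with Cox8b lowest.

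Counts at week 15 also depended on the array kept, among the members and among all features. Without the first week 15 array, 13 of 82 members passed from week 9 to week 15, or 15.9%, against 19.7% of all features. Of these, 10 were lower, among them Ndufa3 (-1.12), Sdhc (-0.89), Cox8a (-0.86), Cox6b1 (-0.77) and Atp5g2 (-0.69), and 3 were higher: Atp5a1 (1.31), Cox7b (1.22) and Ndufaf4 (0.75). From week 6 to week 15, 7 members passed without that array, or 8.54%, against 9.96% of all features, and in the F test 7, against 16.1%. Week 15 then rests on 1 array, which is assumed to vary like the others. Without the second week 15 array, 1 member passed, Cox8b at 2.78 (limma adjusted p = 0.0359), against 0.639% of all features, and in the F test 1, against 0.895%.

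For other genes of mitochondrial energy supply, 5 lists were compared. No gene of the 5 lists passed in any comparison. The list of electron carriers and entry points also names Slc25 carriers, Vdac channels and the ATP synthase inhibitor Atpif1, which carry no electrons. Its 14 tested genes had median changes of 0.03 from week 6 to week 9 and 0.14 from week 9 to week 15. Vdac2, a channel of the outer membrane, was lowest at week 9 (0.76 from week 9 to week 15, limma adjusted p = 0.098). The 27 assembly factors outside the symbol rule had medians of 0.14 and -0.11, the 14 citric acid cycle genes 0.09 and -0.04, and the 68 genes of the mitochondrial ribosome -0.000734 and -0.12. Among 11 regulators of mitochondrial genes, with medians of -0.12 and 0.09, Nrf1, which encodes NRF-1, had 9.71 and 9.51, then 9.98 and 10.07, then 9.46 and 9.34, with week 9 highest (-0.62 from week 9 to week 15, adjusted p = 0.107). Ppargc1b, a coactivator of such regulators, had 9.02 and 9.00, then 8.40 and 8.15, then 9.11 and 8.78, with week 9 lowest (0.66, adjusted p = 0.117). Both were chosen after their values were seen, as was Vdac2.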

How the data were processed

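The authors deposited 1 linear intensity per probe and array without detection p-values, per the file headers; background and scaling are not given in the sources used here. The authors also deposited log2 values of the same arrays, scaled by a method not given here, which served as an alternative. A further 2 columns of array values in that table carry no name of a sample used here and were left aside. Of 1124 rows without a probe ID, 13 bright ones (over 5 median absolute deviations above the median of log2 signals on any array) were left out and 1111 served as background. Intensities were background-corrected from these rows (normal-exponential model, offset 16), quantile-normalized and log2-transformed (neqc, limma 3.58.1, R 4.3.3). Detection was the fraction of background rows that reached a probe's signal, and probes with a value under 0.05 on at least 2 arrays entered the fit. The brightest tested probe stood for its gene, which gave 10167 features.

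All 6 arrays were fitted in 1 model of week means (lmFit, eBayes; 3 residual and 4.02 prior degrees of freedom), with two-sided tests and Benjamini-Hochberg adjustment over all features. With 2 arrays a week, their number limits the precision. The fit was tested on simulated data. Members and lists were chosen with earlier results of these data known. Genes named with values were those past the threshold and the largest positive and negative change of each complex and comparison. Isoforms and core subunits were chosen by name. Other members and genes of the mitochondrial lists are marked as chosen after their values were seen. Genes of the cell type lists that did not pass, such as Acta1, Ucp1 and Pdpn, were named outside this rule and are not marked. Alternatives changed the background correction, scaling, filter, probe choice, variance model, arrays fitted and the replicate block. Probe symbols came from the platform's annotation, so no probe coordinates are given.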

Additional observations from a re-analysis of the deposited data

How the results depend on the processing

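The counts of members past the threshold rest on few arrays. From week 6 to week 9 none passed, and 1 passed (Cox8b) when the week 15 arrays were left out of the model; with each array left out the count ran from 0 to 1. From week 9 to week 15, 1 passed, against 0 with no filter on dim probes, with the week 6 arrays left out of the model and with the replicate block, 2 with scaling to the 75th percentile and with every probe as a feature, and 3 with the authors' processed values. With each array left out the count ran from 0 to 13, the 13 without the first week 15 array, where 1999 of all features passed. From week 6 to week 15 none passed, and with each array left out the count ran from 0 to 7. In the F test none passed, against 1 with no background correction, 1 with an offset of 50 and 1 with an intensity trend and robust priors, and 0 to 7 with each array left out. The labels do not say if arrays with the same replicate number belong together. Differences between both arrays of a week correlated at -0.039, 0.154 and -0.0823 across features between weeks, which cannot decide this. With the replicate block 0 members passed in any comparison. The cause of these shifts was not tested, except that fits without an array have fewer samples. Depth here is signal over background, and Cox8b and Cox7b lie near it at week 9, so their changes depend on the background correction.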
